A study of Mus musculus with 10 samples.

Results

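Hepatocytes from the periportal end of the liver lobule were compared with those from the pericentral end in the 3 libraries taken at ZT0. By convention ZT0 is the start of the light phase; ZT stands for Zeitgeber time, in hours. Cells were chosen by a landmark score, not by where they sat in the tissue: in each library the third of cells with the highest score was taken as periportal and the third with the lowest as pericentral. That gave 4488 cells (2244 per zone) of the 6736 cells at ZT0, in a series of 18378 cells and 10 libraries. The zones held 693 cells each in library A, 953 in library B and 598 in library C. All 3 libraries were made from hepatocytes of C57BL/6 males aged 3 months on regular chow without restriction. The mice were anaesthetised with ketamine and xylazine, the cells were released by collagenase, cleaned on Percoll and sequenced with the 10x Chromium 3' kit, version 2. Whether a library pooled mice is not stated. The p-values therefore rest only on how zone differences varied between these libraries, with a spread pooled in part over genes. The series asks how gene expression in hepatocytes varies with time and with position, and its other 7 libraries come from ZT6, ZT12 and ZT18.

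Blood enters the liver lobule at the portal vein and hepatic artery and drains at the central vein, and hepatocytes along that path divide the work of the organ. Periportal cells meet blood rich in oxygen and are known for urea synthesis, gluconeogenesis and the secretion of plasma proteins. Pericentral cells lie next to endothelium that secretes Wnt ligands, and they are known for glutamine synthesis, drug metabolism by cytochromes P450 and bile acid synthesis.

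The score was the mean z-score of 8 periportal genes minus that of 8 pericentral genes, from the natural log of 1 plus the UMIs (distinct tagged molecules) per 10000. The periportal genes were Hal, Pigr, Ctsc, Ftcd, Asl, Ass1, Hsd17b13 and Cyp2f2, and the pericentral ones Rgn, Cyp1a2, Lect2, Gulo, Oat, Cyp2e1, Aldh1a1 and Mgst1. These 16 landmarks chose the cells, so their values are a description and they entered no test. Just inside the periportal zone the score was 0.595 in library A, 0.674 in B and 0.663 in C, and just outside it was 0.594, 0.673 and 0.657. Just inside the pericentral zone it was -0.379, -0.420 and -0.767, and just outside -0.375, -0.420 and -0.767, the last 2 equal to the inside values at this rounding. Within 0.1 of the pericentral limit lay 104, 134 and 102 cells, and within 0.1 of the periportal limit 197, 249 and 68, so the zones are ranges of a continuous score and not cell types. Scores from odd-numbered and from even-numbered landmarks correlated across the cells of a library with r = 0.705 (A), 0.718 (B) and 0.847 (C), a description of cells that share a library and its depth.

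Even the outer cells carried RNA of the opposite landmarks. The median cell of the pericentral zone held 2, 3 and 2 UMIs of the 8 periportal landmarks in libraries A, B and C, against 12, 13 and 16.5 in the periportal zone. The median periportal cell held 16, 6 and 13.5 UMIs of the pericentral landmarks, against 40, 26 and 72.5 in the pericentral zone. How much of this is free RNA taken up in the droplets was not tested. To see each landmark without its own vote, cells were also ordered by the other 15. All 16 then pointed to their listed side in all 3 libraries. The widest gaps on this scale, log2(CPM + 1) with CPM the counts per 1000000 UMIs of a zone, were -5.15 ± 0.71 (SD, n = 3) for Oat, an enzyme of ornithine breakdown, and -4.58 ± 0.48 for Cyp2e1, a cytochrome P450. Narrow gaps were found for Asl, a urea cycle enzyme (0.84 ± 0.41), and for Mgst1, a glutathione transferase (-0.94 ± 0.14). Mgst1 was the highest of the pericentral landmarks in the periportal zones, at 5013, 2278 and 4031 CPM in libraries A, B and C. Cyp2e1 was at 65.2, 50.3 and 288 CPM there. The pericentral landmark UMIs of periportal cells therefore came largely from Mgst1, a gene high in both zones.

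**Figure D1:**
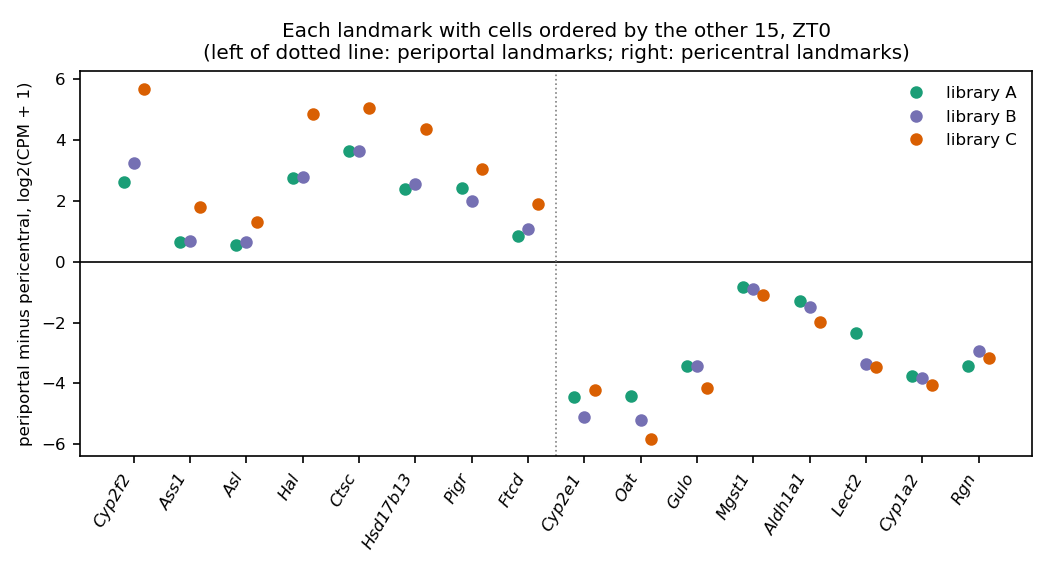
Difference between the periportal and the pericentral zone in log2(CPM + 1), for each landmark gene, with one point per ZT0 library and the cells ordered by the other 15 landmarks. All 8 periportal landmarks lie above 0 and all 8 pericentral ones below 0, and library C lies farthest from 0 for all 8 periportal landmarks.

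Library C stood apart in its order. Its median score was -0.170, against 0.195 in A and 0.225 in B, and its lower limit lay farther from 0. Cyp2f2 without its own vote differed by 5.68 on the log2(CPM + 1) scale in C, against 2.63 in A and 3.23 in B. Over the genes called below, the median size of the zone difference in log2(TMM-scaled CPM + 1) was 0.94 in C, 0.64 in A and 0.66 in B. Values that moved by over 1.5 times without a library are given with and without it. A fit that leaves a library out leans more on a spread pooled over genes. Whether a gene passes in it is therefore not on equal terms with the full fit.

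The zones were compared within libraries. Depth per cell was higher periportally in 1 of 3 libraries: the median cell held 2692 against 2448 UMIs (periportal against pericentral) in A, 2017 against 2398 in B and 2593 against 3100 in C. The median mitochondrial share of UMIs was higher periportally in all 3 libraries, 16.9% against 13.1%, 20.2% against 14.9% and 17.2% against 14.7%. After thinning every cell to 1000 UMIs, the median cell held 479 against 486 genes, 493 against 523 and 498 against 548, fewer periportally in all 3. An exact permutation over 3 pairs cannot give a two-sided p below 0.25, which is what it gave for both of these measures, so neither difference can reach a threshold of 0.05. Most markers of other liver cells were at or near 0. In the 6 zone sums, 10 macrophage markers together held 3 to 15 UMIs, 9 endothelial markers 11 to 33, 8 stellate markers 6 to 40 and 10 lymphoid markers 0 to 2. Clec4f, Csf1r and C1qa of macrophages and Krt7 and Krt19 of bile duct cells had no UMI in any zone. Bile duct markers held 78 to 472 UMIs periportally and 10 to 44 pericentrally, nearly all from Spp1 and Sox9. Erythroid markers held 145 to 153 UMIs periportally and 166 to 245 pericentrally, mostly from Alas2, and were lower periportally per UMI in all 3 libraries. The markers of hepatocytes, by contrast, held 82702 to 195103 UMIs per zone sum.

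Of 8818 genes tested, 1010 (11.5%) differed between the zones at a Benjamini-Hochberg adjusted p of 0.05 (quasi-likelihood test of edgeR, library as a block). Of these, 483 (5.48% of genes tested) were higher in the periportal zone and 527 (5.98%) in the pericentral zone. These shares are the background for the counts of the gene lists below. The fold was at least 2 for 341 genes, 170 periportal and 171 pericentral, and the median fold of the called genes was 1.71. A called gene had the same direction in all 3 libraries in 995 cases. The calls came from a test on these same libraries, so that count is a description and no separate support. The CPM of the zones did not overlap for 586 called genes, where 1207 of all genes tested (13.7%) had no overlap. The middle cells, those in neither zone, lay between both zones in all 3 libraries for 552 called genes (54.7%). For same direction and for the middle cells, the share over all genes tested was not counted. Pericentral calls were the larger share under both scalings, and the size of that share depends on the scaling. Under TMM normalization the median log2 difference over all genes was -0.01, and with library size alone it was -0.12, a shift of 0.11. With library size alone 1177 genes were called, 375 periportal and 802 pericentral, so 31.9% of calls were periportal against 47.8% under TMM.

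The sequences just upstream of the genes are shown here because pericentral genes are known targets of Wnt signalling through TCF/LEF factors, and because HNF4A is a main hepatocyte factor. Windows from 250 bases before to 50 bases after the start site came from RefSeq (GRCm38.p6) and were matched by symbol for 6833 of the 8818 genes tested. Both strands were searched for CTTTGA, the core of the TCF/LEF site, and for CAAAGTCCA, an HNF4A site; a T before the second motif makes both match at once. Slc1a2 (chr2:102706188-102706487, plus strand) and Cyp2c29 (chr19:39286835-39287134, plus strand) were among the 10 largest pericentral differences of genes of at least 20 CPM, and each window held CTTTGA at 2 places. Glul (chr1:153899679-153899978, plus strand), also among these 10, held neither motif. Aldh1b1 (chr4:45798772-45799071, plus strand) had the largest periportal difference among called genes of that level and held CTTTGA once. Cyp3a11 (chr5:145879805-145880104, minus strand), chosen after its values were seen, held both motifs. Capitals mark the matches, read 5′ to 3′ on the gene's own strand, where TCAAAG is CTTTGA on the other strand:
Slc1a2: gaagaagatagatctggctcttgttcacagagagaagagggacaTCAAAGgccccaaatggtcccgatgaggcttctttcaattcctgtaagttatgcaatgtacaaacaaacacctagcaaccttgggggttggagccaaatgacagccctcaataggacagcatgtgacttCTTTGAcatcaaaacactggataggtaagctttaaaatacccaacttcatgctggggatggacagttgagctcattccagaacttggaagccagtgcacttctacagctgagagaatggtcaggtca
Cyp2c29: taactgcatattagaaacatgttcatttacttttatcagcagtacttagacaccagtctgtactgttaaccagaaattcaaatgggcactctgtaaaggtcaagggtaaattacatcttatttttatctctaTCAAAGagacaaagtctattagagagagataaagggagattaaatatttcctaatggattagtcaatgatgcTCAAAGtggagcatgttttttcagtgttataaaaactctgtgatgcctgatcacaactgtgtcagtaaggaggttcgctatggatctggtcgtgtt
Glul: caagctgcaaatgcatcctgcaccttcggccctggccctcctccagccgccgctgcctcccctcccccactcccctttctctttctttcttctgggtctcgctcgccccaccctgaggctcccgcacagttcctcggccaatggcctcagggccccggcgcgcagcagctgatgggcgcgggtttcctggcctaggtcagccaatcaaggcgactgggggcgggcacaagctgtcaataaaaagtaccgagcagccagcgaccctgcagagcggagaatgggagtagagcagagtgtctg
Aldh1b1: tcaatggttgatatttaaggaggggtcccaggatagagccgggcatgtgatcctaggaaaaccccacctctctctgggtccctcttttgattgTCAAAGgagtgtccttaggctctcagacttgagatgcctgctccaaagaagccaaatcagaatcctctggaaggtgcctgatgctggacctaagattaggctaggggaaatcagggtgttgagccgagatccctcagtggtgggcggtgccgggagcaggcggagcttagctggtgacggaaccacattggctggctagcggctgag
Cyp3a11: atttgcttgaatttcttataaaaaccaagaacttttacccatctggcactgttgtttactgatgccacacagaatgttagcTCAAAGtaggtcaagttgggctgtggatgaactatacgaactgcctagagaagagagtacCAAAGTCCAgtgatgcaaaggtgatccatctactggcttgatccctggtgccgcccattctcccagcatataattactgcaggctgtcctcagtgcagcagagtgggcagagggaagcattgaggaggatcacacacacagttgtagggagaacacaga

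CTTTGA had a share in pericentral genes near that of all windows. It stood in 59 of 400 pericentral genes with a window (14.8%), in 63 of 344 periportal ones (18.3%) and in 973 of all 6833 (14.2%). CAAAGTCCA stood in 14 of 400 pericentral genes (3.5%), in 3 of 344 periportal ones (0.872%) and in 45 of 6833 overall (0.659%). These 14 are not independent, since 6 of them are Cyp2c and Cyp3a genes of tandem families (Cyp2c40, Cyp2c67, Cyp2c68, Cyp2c69, Cyp3a11 and Cyp3a41b). A match describes letters in a window and does not show a bound site.

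Genes that handle glutamate, ammonia and glutamine differed widely between the zones. Slc1a2, a glutamate transporter, was at 1.39, 0.914 and 1.09 CPM in the periportal zones of libraries A, B and C and at 42.5, 35.7 and 320 CPM in the pericentral zones. The zones did not overlap, and library C was highest. The log2 difference (periportal minus pericentral) was -6.48 ± 0.31 (SE worked back from the test, n = 3 libraries, adjusted p = 5.46e-14, edgeR). It was -4.96 without library C and -7.06 without library A. Glul, which makes glutamine from glutamate and ammonia, was at 31.9, 32.4 and 29.9 CPM periportally and at 374, 369 and 2098 CPM pericentrally. Its log2 difference was -4.30 ± 0.29 (adjusted p = 2.81e-11, edgeR), and -3.46 without library C. Gls2, which takes glutamine apart, ran the other way at 212, 365 and 438 CPM periportally against 39.9, 98.2 and 9.59 pericentrally. Its log2 difference was 3.01 ± 0.33, 2.17 without library C and 3.79 without library B.

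Of the 8 genes of the ammonia and glutamine list, 5 were higher pericentrally and 2 periportally. The list's median log2 difference was -3.47, beside -0.01 over all genes tested, and without library C it was -1.87. Rhbg, an ammonium transporter, differed by -3.26. Other transporters were nearly silent periportally. Slc13a3, a dicarboxylate carrier, had 2 periportal UMIs in all, a pericentral excess of 46.9-fold (95% exact counting interval 12.6 to 393). Without library C the excess was 13.6-fold, without A 75.7-fold and without B 82.7-fold. Slc1a4, a neutral amino acid carrier, had 3, an excess of 16.1-fold (5.21 to 80.8), or 37.9-fold without library B and 10.6-fold without C. These intervals cover counting error only. Slc38a3, a glutamine transporter, was periportal at 0.85, and Slc38a4 at 0.33 did not pass.

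Finer layers separated a narrow from a broad pericentral pattern. With the cells of each library cut into 8 equal layers, Glul was at 742, 808 and 5182 CPM in the layer at the pericentral end of libraries A, B and C. In the next layer it was at 107, 96.4 and 674 CPM, and at the periportal end at 21.2, 28.8 and 14.0 CPM. Slc1a2 fell from 93.1, 90.8 and 693 CPM in the first layer to 4.39, 2.24 and 187 in the second. Cyp2c29 fell more gradually, from 1944, 2213 and 4388 CPM in the first layer to 1149, 1519 and 4079 in the second and 346, 488 and 2862 in the fourth. In CPM the first step was the largest for Glul and Slc1a2 in all 3 libraries, and for Cyp2c29 in A and B. In library C, Slc1a2 kept 21.3 CPM in the third layer, against 4.77 and 0 in A and B, and Cyp2c29 stayed high across more layers.

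**Figure D2:**
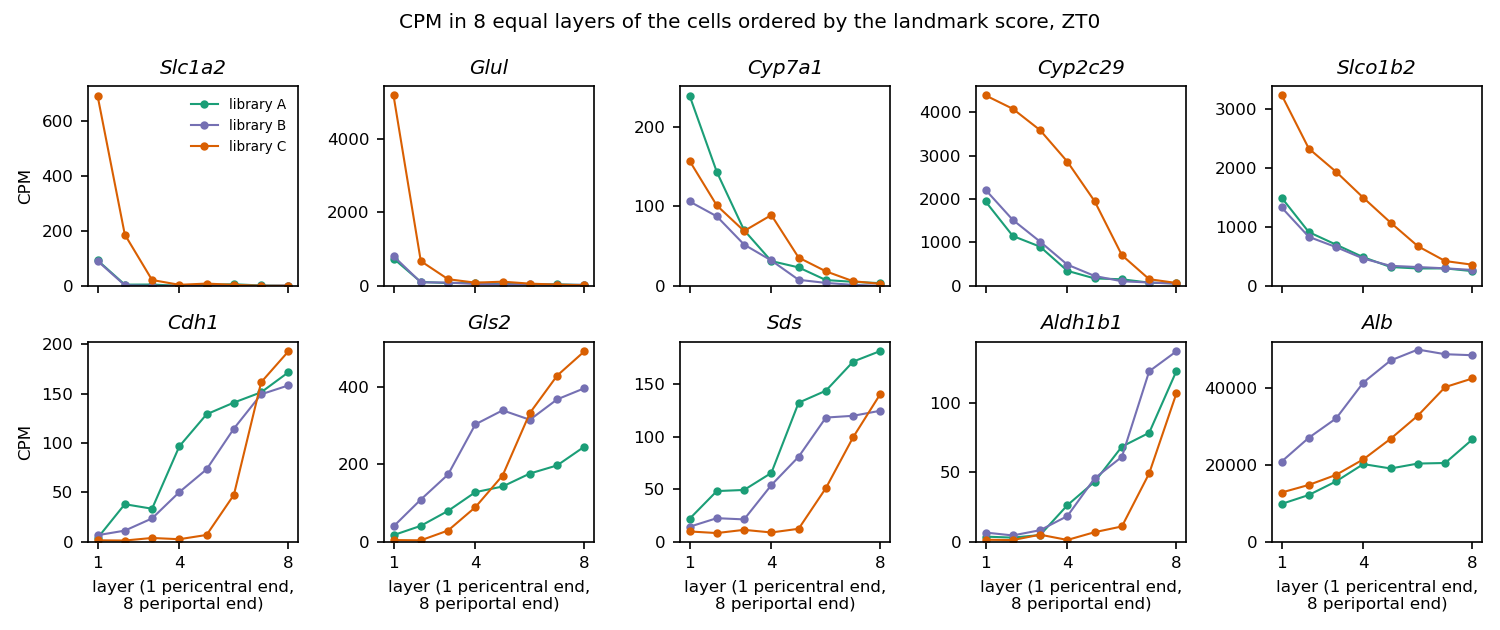
CPM in 8 equal layers of the cells ordered by the landmark score, for 10 genes, with one line per ZT0 library and layer 1 at the pericentral end. Glul and Slc1a2 drop after the first layer, while Cyp2c29 and Slco1b2 decline over several layers. Cdh1, Gls2, Sds, Aldh1b1 and Alb are higher at the periportal end. The layers come from the landmark order and carry no test.

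Wnt targets were mostly pericentral. Of 9 tested genes of the list, 5 were pericentral and 1 periportal, with a median log2 difference of -1.99, which stayed the same with genes at their bound. Without library C, 7 genes were tested, 3 were pericentral and the median was 0.25. Lgr5, a receptor for R-spondins that strengthens Wnt signals, had no UMI in any periportal zone and stood at 7.25, 3.78 and 27.8 CPM pericentrally. Against a floor of 3 UMIs over the periportal zones, it was at least 26.1-fold higher pericentrally. Without library C, which held most of its UMIs, that bound was 7.73-fold. Tbx3, a transcription factor, was at 2.31, 0.457 and 2.18 CPM against 38.8, 16.4 and 63.8, a log2 difference of -4.41 ± 0.30 (adjusted p = 3.88e-11, edgeR). Axin2, a feedback inhibitor of the pathway, was low throughout, at 0.462, 0.457 and 1.63 CPM against 5.18, 4.62 and 21.6, and differed by -3.37 ± 0.48. Notum and Rnf43, which also restrain Wnt signals, differed by -2.26 and -1.99. Ctnnbip1, which blocks beta-catenin from binding TCF factors, was the periportal member, at 30.5, 46.6 and 32.1 CPM against 5.18, 3.36 and 1.44, a difference of 3.57 ± 0.28. Znrf3, Apc and Tcf7l2 lay between -0.19 and 0.18 and did not pass.

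Cytochromes P450 and their partners were largely pericentral. Of 25 tested, 13 were pericentral and 4 periportal, with a median of -0.95. Cyp2c29 was at 75.8, 75.4 and 192 CPM periportally and 1450.2, 1689.6 and 4110.4 pericentrally, a log2 difference of -4.28 ± 0.14 (adjusted p = 5.83e-17, edgeR). Cyp2a5 was at 6.47, 2.74 and 9.25 CPM against 147, 128 and 523, a difference of -5.21 ± 0.20. Cyp2c37 differed by -5.12 ± 0.23, or -4.48 without library C. Cyp2c38 had 3 periportal UMIs in all, a pericentral excess of 69.6-fold (95% exact counting interval 23.5 to 340), or 173-fold without library A and 38.8-fold without C. Cyp2a12, Cyp2u1, Cyp2d26 and Cyp2a4 were the periportal members, at 1.01, 0.95, 0.47 and 1.82, and 2 members were periportal without library B. Cyp2a4 was higher periportally in 2 of 3 libraries, with most UMIs in B. Members of the Cyp2a, Cyp2c and Cyp3a families are near copies, so reads may be split between them. Por, which passes electrons to all microsomal P450 enzymes, was pericentral at -1.08, and its partner Cyb5a at -0.95.

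Conjugating enzymes followed the same side. Of 27 tested, 13 were pericentral and 2 periportal, with a median of -0.41. Glutathione transferases led: Gstm2 was at 6.01, 6.40 and 10.3 CPM periportally against 36.8, 87.7 and 123, a difference of -3.28 ± 0.20 (adjusted p = 4.31e-12, edgeR). Gstm3 differed by -2.42 and Gstm6 by -1.65. Sult5a1, listed with the sulfotransferases, was periportal at 8.79, 6.40 and 13.6 CPM against 3.11, 0.420 and 0.959, a difference of 2.79 ± 0.47 and of 3.92 without library A. Ugt2b38, a glucuronosyltransferase outside the list, was among the 10 largest periportal differences of genes of at least 20 CPM, at 105, 27.9 and 41.3 CPM against 21.2, 1.68 and 7.67 (2.63 ± 0.22); it too has near copies. Ahr and Nr1i3 (CAR), receptors that switch on drug-metabolizing genes, were pericentral at -2.29 ± 0.20 and -1.64 ± 0.16, while Nr1i2 (PXR), of similar role, was periportal at 0.61. In the mean of ZT6, ZT12 and ZT18, from a fit given below, Nr1i2 was at -0.11 and was not called. Ahr and Nr1i3 were pericentral there too, at -2.61 and -1.93. Pparg had 2 periportal UMIs, a pericentral excess of 32.4-fold (95% exact counting interval 8.63 to 273). Without library A, where both of these UMIs lay, it was at least 15.3-fold higher pericentrally, and without library B the excess was 17.9-fold. Among 27 nuclear receptors and liver transcription factors, 5 were pericentral and 5 periportal, with a median of 0.05; without library B 2 were periportal. Esr1, the oestrogen receptor, was the strongest periportal one, at 28.2, 42.5 and 41.9 CPM against 8.80, 16.8 and 16.3 (1.54 ± 0.18).

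Bile acid synthesis was pericentral at its first step. Cyp7a1, the rate-limiting enzyme, was at 3.70, 0.457 and 5.98 CPM periportally and at 171, 87.3 and 113 CPM pericentrally. The zones did not overlap, and the middle cells at 28.7, 21.3 and 60.5 CPM lay between them. The log2 difference was -5.15 ± 0.25 (adjusted p = 7.58e-14, edgeR), and -5.88 without library C. Of 23 tested genes of bile acid synthesis and transport, 10 were pericentral and 2 periportal, with a median of -0.31. Slco1b2, an uptake transporter at the blood side, was at 276, 295 and 438 CPM against 1124, 984 and 2565 (-2.00 ± 0.14). Cyp7b1, of the alternative pathway, differed by -1.57 ± 0.15, and its zones overlapped because library B was low in both, at 16.9 and 74.3 CPM. The periportal pair was Abcb11, the bile salt export pump (0.58), and Nr0b2, a repressor of bile acid synthesis (0.55). In the mean of ZT6, ZT12 and ZT18, from a fit given below, Abcb11 was called at 0.31, and Nr0b2 at -0.08 was not. At ZT0, 1 gene of the list was periportal without library B or with library size alone.

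Further pericentral genes among the 10 largest differences at 20 CPM or more had varied roles. Aldh3a2, a fatty aldehyde dehydrogenase, was at 4.16, 3.20 and 8.70 CPM periportally against 121, 151 and 317 (-5.05 ± 0.19). Lpl, a lipase of lipoprotein triglyceride, was at 4.16, 4.57 and 2.18 CPM against 92.2, 67.1 and 248 (-4.93 ± 0.26, and -4.11 without library C). Avpr1a, a vasopressin receptor, was at 2.31, 1.83 and 6.53 CPM against 29.5, 52.0 and 80.1 (-3.80 ± 0.25). No library overlapped between the zones for these 3 genes.

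Cell adhesion was divided between the zones. Cdh1, E-cadherin, was at 158, 144 and 156 CPM periportally and 21.2, 10.1 and 2.40 CPM pericentrally, a log2 difference of 3.91 ± 0.26 (adjusted p = 2.27e-11, edgeR) and of 4.71 without library A. Its middle cells held 108 and 66.3 CPM in A and B but 5.00 in C. Cldn2, a tight junction claudin, was pericentral at 12.9, 21.0 and 13.1 CPM against 58.5, 103 and 120 (-2.42 ± 0.17). Of 18 adhesion genes 6 were periportal and 2 pericentral, with a median of 0.21. Cldn14, F11r, Ocln, Jup and Cldn1 were the other periportal members, from 0.52 to 1.10, and Cldn14 no longer passed without library C (adjusted p = 0.0849, edgeR).

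**Figure D3:**
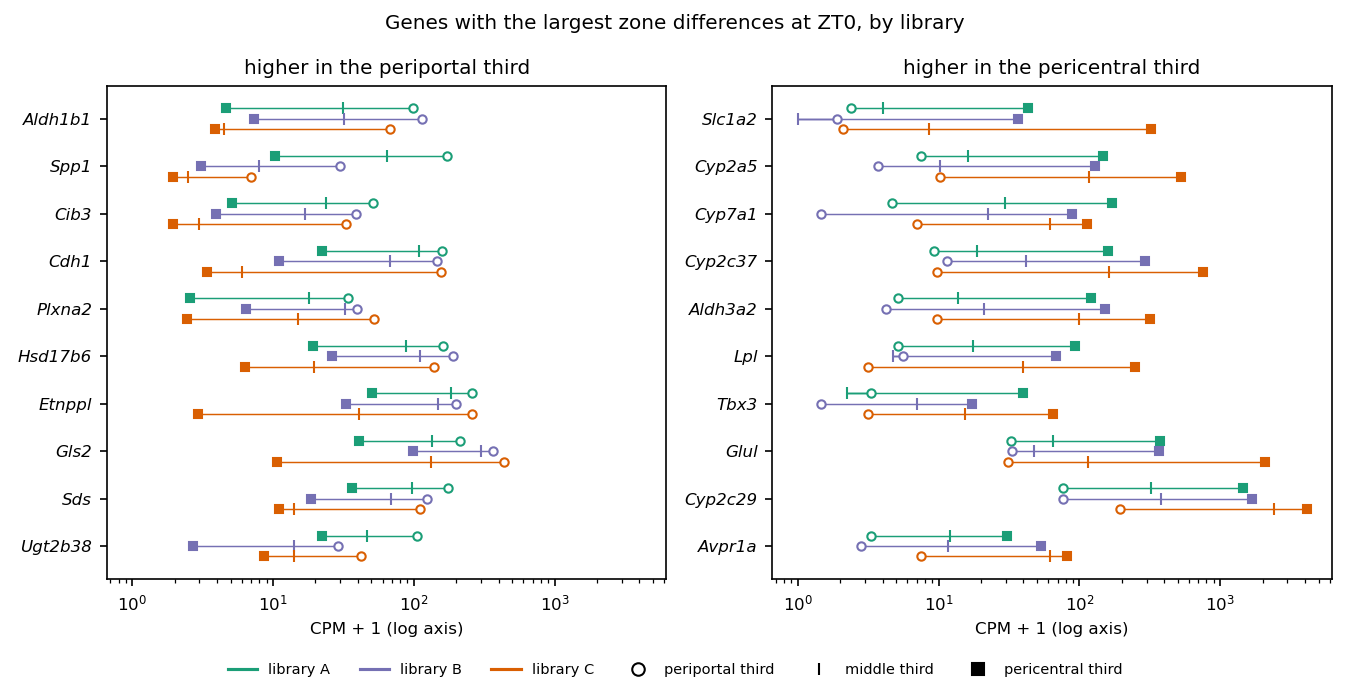
CPM + 1 on a log axis for the 10 genes of at least 20 CPM with the largest periportal and the 10 with the largest pericentral differences; each line is one ZT0 library, from the pericentral zone (square) over the middle cells (tick), to the periportal zone (open circle). For 19 of the 20 genes the zones do not overlap between libraries, and Spp1 is the exception, with 170, 28.8 and 5.98 CPM periportally.

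Among periportal genes of at least 20 CPM with the largest differences, Aldh1b1, a mitochondrial aldehyde dehydrogenase, was at 98.0, 114 and 66.9 CPM against 3.62, 6.29 and 2.88. Its log2 difference was 4.51 ± 0.20 (adjusted p = 1.26e-14, edgeR). Spp1, osteopontin, was at 170, 28.8 and 5.98 CPM against 9.32, 2.10 and 0.959 (4.01 ± 0.24). Its direction held in each library but its level spread more between libraries than between zones. Spp1 and Sox9 are also markers of bile duct cells. Sox9 was at 47.6, 29.7 and 36.5 CPM against 13.5, 6.71 and 3.84 (2.34 ± 0.24), while Krt7 and Krt19 had no UMI and Epcam 1 UMI in all. Hsd17b6, a steroid-oxidizing enzyme, was at 161, 190 and 139 CPM against 18.1, 25.2 and 5.28 (3.46 ± 0.20). Plxna2, a semaphorin receptor, was at 33.3, 38.4 and 51.1 CPM against 1.55, 5.45 and 1.44 (3.89 ± 0.29, and 4.89 without library B). Cib3, a calcium-binding protein, differed by 3.97 ± 0.27. Etnppl, which breaks down phosphoethanolamine, was at 258, 197 and 257 CPM against 49.2, 31.9 and 1.92 (3.29 ± 0.32, 2.57 without library C and 3.96 without library A).

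Amino acid breakdown leaned to the periportal side. Of 31 tested genes 13 were periportal and 3 pericentral, with a median of 0.35. Sds, which turns serine into pyruvate, was at 173, 123 and 109 CPM against 35.2, 17.6 and 10.1 (2.83 ± 0.18; adjusted p = 1.23e-11, edgeR). Its relative Sdsl differed by 2.46 ± 0.33. Uroc1 and Amdhd1, of histidine breakdown downstream of the landmark Hal, differed by 1.75 ± 0.19 and 1.66. Gldc, of the glycine cleavage system, was at 202, 149 and 227 CPM against 75.1, 67.5 and 43.2 (1.73 ± 0.18). The 3 pericentral members were small: Prodh at -0.77, Hpd at -0.42 and Aldh4a1 at -0.39. Without library A, or without B, 1 gene of the list was pericentral.

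Urea synthesis and gluconeogenesis showed modest periportal differences next to those of the genes above. Cps1, which fixes ammonia for the urea cycle, was at 3129, 3085 and 3630.4 CPM against 2516, 2212 and 1484 (0.80 ± 0.16; adjusted p = 0.00118, edgeR). Arg1, the last step, was at 863, 678 and 857 CPM against 690, 505 and 334 (0.80 ± 0.17). In the 8 layers Arg1 was lowest at the pericentral end, at 521, 394 and 120 CPM in libraries A, B and C. It was at 822, 538 and 341 CPM in the second layer and at 860, 670 and 850 at the periportal end. Cps1 was lowest in the first layer too, at 2068, 1570 and 379 CPM, against 2959, 2502 and 1770 in the second. Of 7 tested genes, these 2 were periportal and 5 did not pass, with a median of 0.25; Ass1 and Asl of the same cycle were landmarks and are not counted. For gluconeogenesis 7 of 11 were periportal and none pericentral, with a median of 0.49. Pck1, which commits oxaloacetate to glucose, was at 1315, 1026 and 1505 CPM against 547, 455 and 717 (1.27 ± 0.12; adjusted p = 2.54e-08, edgeR). Fbp1 was at 762, 711 and 703 CPM against 448, 403 and 284 (1.06 ± 0.14). Ppargc1a, a co-activator of the pathway, differed by 1.84 ± 0.30. G6pc, which releases glucose, was at 384, 419 and 509 CPM against 328, 341 and 476 and did not pass (0.31 ± 0.12, adjusted p = 0.106, edgeR).

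In glycolysis 5 of 15 genes were periportal and 2 pericentral, with a median of 0.24, and 3 were periportal without library B. Eno1 (0.85 ± 0.16) and Gpi1 (0.75 ± 0.13) were periportal, and Eno1 no longer passed without library B (adjusted p = 0.0518, edgeR). Pfkfb1, which sets the level of a glycolysis activator, was pericentral at 7.86, 6.85 and 4.90 CPM against 22.3, 22.2 and 26.4 (-1.73 ± 0.24). In glycogen metabolism 1 of 10 genes passed, near the share of all genes tested (11.5%). It was Ppp1r3g, a targeting subunit of the phosphatase that activates glycogen synthase (-1.48 ± 0.28), and the list median was -0.14.

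Plasma proteins were the largest periportal group by count. Of 65 tested, 42 were periportal and 2 pericentral, with a median of 0.51 beside -0.01 over all genes. Albumin (Alb) was at 23121, 48821 and 40248 CPM periportally against 11722, 25532 and 14609, a log2 difference of 1.23 ± 0.14 (adjusted p = 8.1e-07, edgeR). Hpx, the heme scavenger, was at 3701, 5351 and 5499 CPM against 1642, 2545 and 1601 (1.44 ± 0.15). Vtn and Itih3 differed by 0.97 ± 0.14 and 1.16 ± 0.16. All 3 fibrinogen chains, Fga, Fgb and Fgg, passed at 0.65, 0.83 and 0.74. The exceptions were Serpina6, which carries corticosteroids (-0.72), and complement C6 (-0.61). Ttr, which carries thyroid hormone, was at 16453, 10771 and 11278 CPM against 19072, 11376 and 7721 and did not pass. Without library B 31 were periportal and without library C 39.

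Apolipoproteins and their partners were divided, 8 of 23 periportal and 3 pericentral, with a median of 0.34. With library size alone they were 6 and 6, and without library C 5 and 4 with a median of 0.12. Apoa4 was at 241, 172 and 155 CPM against 53.8, 59.2 and 21.6 (2.20 ± 0.17), and Apob at 0.17 ± 0.12 did not pass. Apoc2 passed at 1.76 ± 0.56 but was higher periportally in 2 of 3 libraries, with most of its reads in library C. The pericentral members were Lpl, Pltp (-1.71 ± 0.33) and Angptl4 (-0.65), which act on lipoproteins in blood. Endoplasmic reticulum folding genes had 6 of 29 periportal and none pericentral, with a median of 0.26. That count changed with the scaling and with the libraries in the fit: it was 1 with library size alone, with 1 pericentral, and 3, 1 and 9 without libraries A, B and C.

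**Figure D4:**
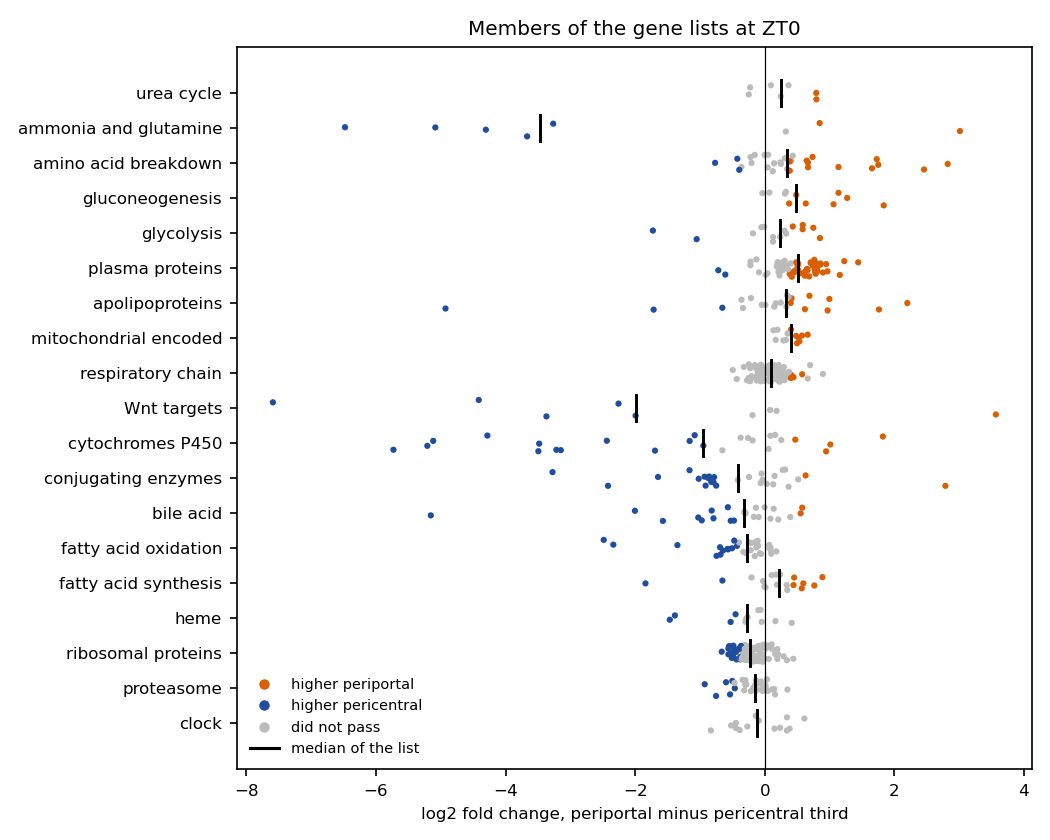
Log2 fold change (periportal minus pericentral zone, TMM-normalized edgeR fit) of every tested member of the main gene lists at ZT0; colours give the direction of members that passed an adjusted p of 0.05, grey members did not pass, and the bars are list medians. Plasma proteins gather to the right of 0, with 42 of 65 called periportal, while cytochromes P450 and fatty acid oxidation genes reach to the pericentral side.

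Fatty acid oxidation had no periportal gene. Of 32 tested, 13 were pericentral, with a median of -0.27. Cyp4a10 and Cyp4a14, omega-hydroxylases that are known targets of PPAR alpha, were at 40.2, 93.7 and 35.4 CPM against 152, 445 and 461 (-2.48 ± 0.19) and at 19.0, 64.0 and 18.5 against 60.6, 321 and 187 (-2.34 ± 0.18). Acaa1b, a peroxisomal thiolase, was at 372, 393 and 570 CPM against 880, 1053 and 1835 (-1.35 ± 0.12). Ppara itself was pericentral at -0.68. Cpt1a, which admits fatty acids to mitochondria, did not pass at -0.13. Fatty acid synthesis leaned the other way, with 6 of 18 periportal and 2 pericentral and a median of 0.21. Acly (0.89 ± 0.14), Acaca (0.77 ± 0.14) and Fasn (0.45 ± 0.14), 3 consecutive enzymes, were periportal. The periportal members numbered 2 without library B, 3 without library C and 4 with library size alone, and Fasn did not pass without B or without C. Elovl3, a fatty acid elongase, was pericentral at 191, 92.8 and 381 CPM against 628, 639 and 1024 (-1.84 ± 0.18). In cholesterol synthesis 2 of 24 were periportal, Sqle (0.88 ± 0.17) and Dhcr7 (0.65 ± 0.13), and 2 pericentral, Hmgcs1 (-0.63 ± 0.13) and Msmo1 (-0.46 ± 0.13), with a median of 0.06. Over all genes tested 5.48% were periportal and 5.98% pericentral, so counts this small are near the general share. With library size alone the median of the list was -0.05 and the pericentral members numbered 4. Msmo1 did not pass without library A or without C.

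Transcripts of the mitochondrial genome were periportal where they passed, 7 of 13 with none pericentral and a median of 0.41. mt-Co2 was at 20422, 21905 and 20378 CPM against 14765, 14214 and 13572 (0.66 ± 0.13; adjusted p = 0.000824, edgeR). Without library B 1 of the 13 passed, and mt-Co2 did not (adjusted p = 0.094, edgeR). The difference of mt-Co2 in that fit was 0.62, close to its value with all libraries. Passing there is not on equal terms with the full fit. Of respiratory chain genes of the nucleus, 4 of 90 were periportal (5.48% over all genes tested), none pericentral (5.98%), and the median was 0.09. The periportal count was near the general share. With library size alone the counts were 1 periportal and 4 pericentral with a median of -0.01. Without library B 1 was periportal, and without library C 2 were periportal and 2 pericentral, with a median of -0.01. Leaving out the Ndufaf assembly factors, a trim made after values were seen, gave 4 of 83. Ribosomal protein genes were pericentral where they passed, 22 of 101, with a median of -0.23, and 21 of 86 without pseudogenes and S6 kinases, a trim also made after values were seen. Rpl41 was at 3212, 4872 and 1946 CPM against 4133, 8376 and 3501 (-0.56 ± 0.13). The count was 12, 1 and 31 without libraries A, B and C, and 43 with library size alone, and Rpl41 did not pass without B. Proteasome genes had 6 of 37 pericentral and none periportal, with a median of -0.15; the count was 3 without library B, 10 without library C and 10 with library size alone. The mitochondrial share of UMIs, to which the mitochondrial transcripts themselves add, was higher periportally in all 3 libraries as given above. Whether the other groups follow that share was not tested, and cells with equal shares were not compared. With mitochondrial genes left out before normalization, 20 of 102 ribosomal genes were pericentral with a median of -0.23, and 6 of 37 proteasome genes with a median of -0.15.

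Heme genes passed only on the pericentral side, 4 of 12, with a median of -0.27. Blvrb, a biliverdin reductase, was at 61.0, 56.2 and 78.9 CPM against 184, 196 and 197 (-1.47 ± 0.14), and Cpox, of heme synthesis, was at 57.8, 56.2 and 77.8 CPM against 140, 122 and 318 (-1.39 ± 0.15). Alas1, the first enzyme of heme synthesis in liver, did not pass (-0.28 ± 0.14). Alad and Fech were not called without library B, and Fech not without library A. Iron genes passed only on the periportal side, 5 of 16, with a median of 0.18. Tfrc, the transferrin receptor, differed by 0.68 ± 0.17, and Slc40a1, the iron exporter, by 0.72 ± 0.14. With library size alone, or without library C, 2 iron genes were pericentral, and Slc40a1 did not pass without library B (adjusted p = 0.0569, edgeR). Hamp, the iron hormone hepcidin, was at 1557, 185 and 552 CPM against 1809, 175 and 154 and did not pass (0.63 ± 0.24). Its libraries differed from each other by more than its zones. In the 8 layers Hamp was highest between the ends, as given under other observations.

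Oxygen-related genes did not move as a group. Of 12 tested targets and regulators of the hypoxia response, 3 were pericentral while the list's median was on the other side, at 0.18. Ndrg1 was at 0, 9.14 and 2.18 CPM against 5.70, 65.0 and 31.2 (-3.01 ± 0.28, and -3.89 without library B). Egln3, an oxygen sensor, differed by -2.24 ± 0.34 (-2.93 without library C) and Bnip3 by -0.50 ± 0.13, which did not pass without library B. Vegfa at 0.23 and Hif1a at 0.20 did not pass. In the glutathione and antioxidant list 4 of 22 were pericentral, among them Txnrd1 (-0.65 ± 0.13) and Gsr (-0.64 ± 0.13), and 2 periportal, with a median of -0.14. Gss, which completes glutathione, was at 0.67. The pericentral members were 2 without library A and 2 without library B, and the periportal ones 0 without library A and 1 without library C.

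Immediate early and heat shock genes pointed both ways. Of those tested 11 did not pass, where 11.5% of all genes tested passed. Of 19 tested, 5 were periportal (Btg2, Fos, Gadd45g, Junb and Egr1, from 0.69 to 0.94, Egr1 in 2 of 3 libraries) and 3 pericentral, with a median of -0.09. Btg2, an antiproliferative factor, was at 55.5, 109 and 82.2 CPM against 36.8, 49.9 and 50.8. Hspa1b, an inducible heat shock protein, was pericentral at 40.2, 2.28 and 12.5 CPM against 85.9, 10.5 and 59.0 (-1.48 ± 0.20). Cyr61 was pericentral at 1.39, 1.37 and 1.09 CPM against 10.9, 3.36 and 9.59 (-2.45 ± 0.47). Among 16 interferon-response genes 3 were pericentral and 2 periportal, with a median of 0.03. Ifit3 differed by -1.61 ± 0.29 and Ifit1 by -1.35 ± 0.26, the latter -0.69 without library C and -2.18 without library B. Rsad2 passed at -0.85 ± 0.21 but was higher pericentrally in only 2 of 3 libraries after TMM scaling, and it did not pass without library C (-0.37; adjusted p = 0.353, edgeR). The periportal members, Irf7 (0.57) and H2-D1 (0.44), numbered 1 without library B or C and 0 with library size alone.

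Major urinary protein genes (Mup) pointed both ways. Of 21 tested, 9 were pericentral and 3 periportal, with a median of -0.46 (1 periportal without library B), and they are near copies among which reads may be split. Mup11 was at 869, 18.3 and 228 CPM against 4527, 181 and 5781 (-3.35 ± 0.25, -2.56 without library C and -3.99 without library A). Mup20, the pheromone darcin, was periportal at 28483, 4652 and 11625 CPM against 10172, 1736 and 4514 (1.53 ± 0.13). Library B was lowest in both zones for both genes, so levels overlapped although each library kept the direction. Of 18 genes of the growth hormone and insulin axis, 4 were periportal and 3 pericentral, with a median of 0.00. Igfbp2 was at 124, 149 and 282 CPM against 113, 128 and 92.1 (0.76 ± 0.20) and did not pass without library C. In the 8 layers it was highest between the ends, as given under other observations. Socs2 (-0.67 ± 0.19) did not pass without library A and Cish (0.81 ± 0.25) not without A or B. The periportal count was 2 without library B and the pericentral count 1 without library A.

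Of the clock list, 14 of 19 genes were tested, and none passed (median -0.11). With 11.5% of all genes called, so short a list says nothing particular about clock genes. The untested members were Per3, Nr1d1, Dbp, Bhlhe41 and Ciart, and limma-voom and DESeq2 also called none of the 14. Arntl, an activator of the clock, was at 16.2, 10.5 and 21.2 CPM periportally against 17.6, 13.8 and 41.3 (-0.44 ± 0.21; adjusted p = 0.198, edgeR). Per1, an early repressor of the loop, was at 5.09, 1.83 and 1.63 CPM against 3.62, 2.10 and 4.32. Its difference was -0.14 ± 0.47, so a sizeable difference in either direction was not detectable at this depth. Of the alternatives, 6 called 1 clock gene: 2 periportal (without library A, and all 10 libraries in the fit) and 4 pericentral (library size alone, no filter, cells of at least 2000 UMIs, odd-numbered landmarks).

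The other 3 times served as measurements that played no part in the ZT0 fit. In a fit of all 10 libraries, the mean zone difference of ZT6, ZT12 and ZT18 passed for 1525 of 8909 genes (17.1%). Of the ZT0 calls, 786 (77.8%) were among them, which is 51.5% of the 1525. The direction matched in all 786. Of the 995 ZT0 calls that this fit tested, 977 had the same direction as the mean of the other times, 951 that at ZT6, 956 that at ZT12 and 946 that at ZT18. Matching with the mean was thus found for 98.2% of these calls, beside 67.4% of the 7690 genes tested in both fits that were not called at ZT0. The cells of those times were ordered by the same 16 landmarks, so they share that choice.

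**Figure D5:**
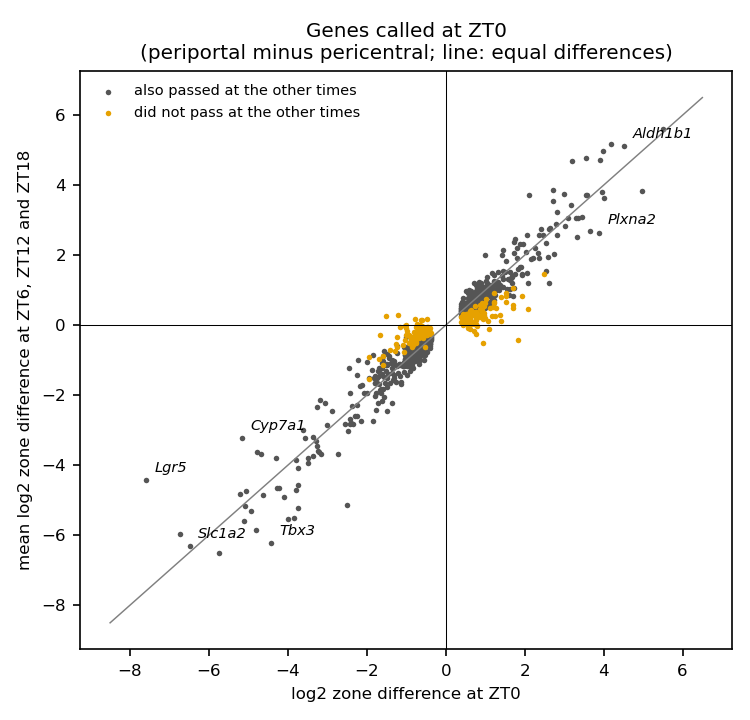
Log2 zone difference at ZT0 against the mean log2 zone difference of ZT6, ZT12 and ZT18 for the 995 genes called at ZT0 that both fits tested; the line marks equal differences. Grey points also passed at the other times and orange points did not; Cyp7a1 lies off the line, at -5.15 against -3.23, and Lgr5 at -7.59 against -4.43, fitted values of a gene with no periportal UMI at ZT0.

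A direct test of whether the zone difference at ZT0 departs from the mean of the other times called 0 of 8909 genes (0.0%) by edgeR's quasi-likelihood test. There were 393 genes at an unadjusted p under 0.05, and DESeq2 and limma-voom also called 0, with 53 and 417 genes at that unadjusted level. The lowest adjusted p belonged to Cyp7a1, at 0.0956. Its zone difference was -5.14 at ZT0 against -2.70 at ZT6, -3.49 at ZT12 and -3.51 at ZT18, a departure of -1.91. In single libraries at ZT0 it was -5.24, -5.86 and -3.83 in log2(TMM-scaled CPM + 1), and at the other times it ran from -1.99 to -3.90, so library C overlapped them. Periportal Cyp7a1 was at 0.457 to 5.98 CPM at ZT0 and at 7.83 to 59.7 CPM at the other times. Without library C at ZT0, 3 genes passed: Cyp7a1 (-2.65), Gldc (-1.03) and Mup11 (1.16).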

How the data were processed

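UMI counts per gene and cell were deposited by the authors as whole numbers, without normalization. The submitters' processing notes name Cell Ranger and the builds mm10 and hg19 with no role; other steps are not given in the sources used here. Cells held 1048 to 10001 UMIs, and the 3 libraries 5729487, 6728285 and 5923475. Cell names are running numbers, so shared barcodes were not counted. No doublet caller was run.

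UMIs were summed over each zone of each library. Genes averaging 3 CPM or more were tested with edgeR 4.0.16 (quasi-likelihood, TMM, Benjamini-Hochberg at 0.05, R 4.3.3). The library was a block, because both zones come from the same pool of cells. An SE given with a log2 difference was worked back from the test. It is the absolute difference divided by the square root of the F statistic. That statistic uses a spread pooled in part over genes, so this SE is not the spread of the libraries. The 16 landmarks stayed in the totals and out of the calls. The code was tested on simulated data. Alternatives used DESeq2 1.42.0, limma-voom (limma 3.58.1) and other scalings, filters, zone widths and landmark sets. Of 14812 gene entries 14325 matched GENCODE M21.

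Named genes are, in each direction, the 10 largest differences among called genes of at least 20 CPM, and up to 4 called members of each list. Others named were chosen after their values were seen. The cells, members and lists were chosen with earlier results of these data known. Exact counting intervals are at 95%.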

Additional observations from a re-analysis of the deposited data

Results flagged for a closer look

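Against the mean of the other times no gene passed, but 7 genes differed between ZT0 and a single other time, by a test of the difference of the zone differences (edgeR, adjusted over 8909 genes). Against ZT12, Cyp2c29 was less pericentral at ZT0 by 1.37 ± 0.26 (SE; adjusted p = 0.0265), with -4.27 at ZT0 and -5.65 at ZT12. Pkdcc, a secreted kinase, differed by 2.11 ± 0.36 (adjusted p = 0.0115), with 0.71 at ZT0 and -1.40 at ZT12. At ZT6 and ZT18 Cyp2c29 was at -3.86 and -4.48, and Pkdcc at 0.22 and 0.66. For both genes ZT12 stood farthest from ZT0, so the departure is not particular to ZT0.

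Against ZT18, which has 2 libraries, 5 genes differed. Cyp2a4 differed by 6.82 ± 0.83 (adjusted p = 7.01e-06), with 1.85 at ZT0 and -4.97 at ZT18. At ZT18 it had 1 periportal UMI in each library against 36 and 27 pericentral ones. It has near copies among which reads may be split. Cyp7b1 differed by -1.30 ± 0.24 (adjusted p = 0.0129), with -1.55 at ZT0 and -0.26 at ZT18. The immediate early genes Egr1 and Ier2 differed by 1.24 ± 0.24 (adjusted p = 0.0205) and 1.46 ± 0.26 (adjusted p = 0.00875). Egr1 was 0.72 at ZT0 and -0.52 at ZT18, and Ier2 0.37 and -1.08. Naa40, an acetyltransferase, differed by -4.08 ± 0.85 (adjusted p = 0.0493) and had 1 pericentral UMI in each ZT18 library. It was -0.68 at ZT0 and 3.40 at ZT18. At ZT6 and ZT12 the zone differences were 1.96 and 1.76 for Cyp2a4, -1.97 and -2.23 for Cyp7b1, and 0.54 and 0.28 for Egr1. They were 0.38 and 0.68 for Ier2, and -0.15 and -0.18 for Naa40. For all of these genes ZT18 stood farthest from ZT0, so the departures are not particular to ZT0.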

How the results depend on the processing

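The count of 1010 genes differing between the zones became 398 with DESeq2, 374 with cells thinned to 1000 UMIs and 108 with no replicate block (zone alone, ignoring that both zones share a library). Leaving out 1 library gave 720 to 953. These fits hold fewer libraries and lean more on a spread pooled over genes. Without library A, Slc1a2 reached an adjusted p of 2.94e-46 (edgeR), far below that of the full fit. Their counts are not on equal terms with 1010 and do not measure how firm it is. Thinning leaves fewer UMIs per cell; the cause of the other shifts was not tested. Of 133 named genes that passed, 40 passed under all 19 alternatives, 41 were lost only without the block, and none reversed. Other alternatives stayed within 1.5 times the count.

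For the departure of ZT0 from the other times, 0 genes became 1 with library size alone, 2 against ZT12 alone and 5 against ZT18 alone, and 0 to 3 when 1 of 10 libraries was left out. Treating library letters as a pairing across times (replicate block on the zone difference) gave 3: Cxcl9, Cyp7a1 and Gldc. Over 4348 genes, deviations of same-letter libraries at ZT0 and ZT12 correlated at -0.07, 0.23 and 0.28, not all above 0.1, so letters were not taken as pairs; A correlated best with B, while B and C correlated best with their own letter. Other times were not checked. With 3 libraries at ZT0 and 2 at ZT6 and ZT18, small departures were not detectable.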

Other observations

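Few genes peaked between the zones when the middle cells were summed as a whole. Of 4175 genes with at least 20 CPM, none was at least 1.25 times higher in the middle cells than in both zones in all 3 libraries, and none was lower there by that factor. With no minimum size, 71 were above both in all 3 libraries and 111 below. These sums can miss a narrower peak. In the 8 layers, made for chosen genes and without a test, Hamp and Igfbp2 peaked inside in all 3 libraries. Hamp peaked at 2366, 244 and 902 CPM in A, B and C. It was at 1294, 128 and 96.1 CPM at the pericentral end and 1425, 181 and 432 at the periportal end. Igfbp2 peaked at 156, 212 and 425 CPM, against 83.4, 79.9 and 26.5 CPM and 117, 142 and 218 CPM at these ends. Hamp2 was also highest in an inner layer in each library.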
